A study of Mus musculus with 34 samples.

Results

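A set of 6 genes of the transforming growth factor beta (TGF-beta) pathway was followed across cultured CD4 T cells: the receptor genes Tgfbr1, Tgfbr2 and Tgfbr3 and the SMAD genes Smad2, Smad3 and Smad4. They were chosen by name, as the receptors that take up the ligand and the SMAD factors that carry its signal, and they are 6 of the 27179 gene identifiers counted in each library. Earlier results of these data were known at that choice, so counts over the 6 genes are not independent evidence of a direction. All 6 passed the filter on low counts, which left 11357 genes for testing. The RNA came from naive CD4 T cells (strain C57BL/6) that had been activated with antibodies against CD3 and CD28 fixed to the plate, cultured for 3.5 days, stained and sorted. It was read as 3-prime RNA libraries, 34 in all. Groups are named as in the labels: Tfh2_1e4 (6 libraries), Tfh2_2e4 (5, with no replicate 3), Tfh2_4e4 (6), Tfh2_6e4 (6), Tfh5_4e4 (6) and TfhA_4e4 (5, with no replicate 4). The labels give each group a differentiation condition under its code and do not spell out Tfh2, Tfh5 or TfhA, the unit of 1e4 to 6e4, the gate of the sort or how many mice or cultures stand behind a group. The p-values below therefore measure the spread between these samples, which may be technical. In bulk RNA, fewer cells of a type and less RNA per cell cannot be told apart.

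TGF-beta binds the type II receptor encoded by Tgfbr2, a kinase that is active on its own, and the complex recruits and switches on the type I receptor kinase encoded by Tgfbr1. The type I receptor phosphorylates the receptor-regulated factors SMAD2 and SMAD3, which join the common partner SMAD4 and act on genes in the nucleus. Betaglycan, the product of Tgfbr3, is a co-receptor that presents the ligand. In CD4 T cells the pathway is known for its part in regulatory T cell and TH17 differentiation and for restraining TH1 differentiation.

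Total counts per library ran from 4481509 to 9934245, and 48.3% of all counts fell on just 2 identifiers that the annotation used here does not name. Levels are given in CPM, the gene's share of a library's TMM-normalized total, put on one common scale, with those identifiers kept in the total. T cell identity genes (Cd3d, Cd3e, Cd3g, Cd4, Cd5, Cd28 and Lck) summed to between 1444 and 2092 CPM in every library, while the 4 B cell genes reached at most 1.52 CPM, the 4 myeloid genes 1.72 CPM and the 3 NK cell genes 3.59 CPM, with Ncr1 at 0 counts in each group. The CD8 genes Cd8a and Cd8b1 summed to 3.84 to 15.5 CPM. In S100a6, a gene high in TfhA_4e4 (415 to 588 CPM), 2 libraries of other groups stood apart: Tfh2_4e4 replicate 3 held 75.9 CPM (19.5 to 27.3 in the rest of its group) and Tfh2_2e4 replicate 6 held 67.2 CPM (17.7 to 30.4). Member calls that end without these 2 libraries are named below.

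The stretch of 250 bases before the annotated start is shown for the 3 members with the widest spread of group means for which a RefSeq window (GRCm38.p6) was used, since these genes were all lower in the TfhA_4e4 libraries. Capitals mark 3 motifs on either strand. The CCAAT box is spelled CCAAT, and reads ATTGG from the opposite strand. The GC box is spelled GGGCGG and the SMAD half-site CAGAC. None of the marked matches overlap. The AP-1 letters TGACTCA and the Maf half-site letters TGCTGA were searched too and were in none of the windows shown.
Tgfbr1, chr4:47352972-47353221, plus strand: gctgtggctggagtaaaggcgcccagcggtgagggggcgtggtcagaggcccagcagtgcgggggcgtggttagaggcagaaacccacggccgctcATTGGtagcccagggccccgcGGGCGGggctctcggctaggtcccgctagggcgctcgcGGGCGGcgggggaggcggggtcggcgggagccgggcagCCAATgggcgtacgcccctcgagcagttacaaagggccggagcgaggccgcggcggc
Tgfbr2, chr9:116175364-116175613, minus strand: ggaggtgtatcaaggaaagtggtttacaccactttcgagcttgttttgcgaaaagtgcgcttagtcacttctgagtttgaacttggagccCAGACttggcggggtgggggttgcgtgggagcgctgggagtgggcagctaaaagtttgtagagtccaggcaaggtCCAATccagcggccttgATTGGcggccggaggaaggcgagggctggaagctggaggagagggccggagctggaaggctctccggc
Smad3, chr9:63757995-63758244, minus strand: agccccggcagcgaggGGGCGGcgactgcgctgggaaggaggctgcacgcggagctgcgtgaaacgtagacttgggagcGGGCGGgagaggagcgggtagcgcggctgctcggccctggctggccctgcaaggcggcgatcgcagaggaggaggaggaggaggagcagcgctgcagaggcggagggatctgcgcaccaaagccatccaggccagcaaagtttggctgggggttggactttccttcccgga
The Tgfbr1 window held 2 CCAAT boxes and 2 GC boxes, the Tgfbr2 window 2 CCAAT boxes and 1 CAGAC with no GC box, and the Smad3 window 2 GC boxes alone. Of 32851 such windows, 33.9% hold a CCAAT box, 32.7% a GC box, 42.2% a CAGAC, 4.46% the AP-1 letters and 16.1% the Maf half-site letters, so none of these matches is rare. GC content was 74.8% for Tgfbr1, 58.4% for Tgfbr2 and 69.2% for Smad3, beside a median of 52.4% over all windows. A further Tgfbr1 start in RefSeq, not shown, has a window with 52.8% GC, 1 CAGAC, 2 Maf half-sites and neither a CCAAT box nor a GC box.

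All 6 genes had their lowest group mean in TfhA_4e4. The share of all tested genes with their lowest mean in that group was not counted, so this has no baseline. Against Tfh2_4e4, all 6 fell in TfhA_4e4, in a comparison that called 32.8% of all tested genes and 17.4% lower (edgeR quasi-likelihood test with Benjamini-Hochberg adjustment over all genes, threshold 0.05, used throughout). Against Tfh5_4e4 all 6 were lower too, beside 39.5% of all genes called and 20.4% called lower. In Tfh5_4e4 against Tfh2_4e4, Tgfbr1 and Tgfbr2 rose and none fell, where 3.11% of all genes were called, 1.41% higher and 1.70% lower. Within Tfh2, the slope on the label number was called for 5 of the 6 genes in a comparison that called 46.9% of all genes: Tgfbr1 and Tgfbr2 fell with the number while Tgfbr3, Smad3 and Smad4 rose (24.1% of all genes were called higher and 22.8% lower). TfhA_4e4 and Tfh5_4e4 are both set against the same Tfh2_4e4 libraries, so these comparisons are not independent. The 6 genes were also chosen with earlier results of these data known.

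**Figure D1:**
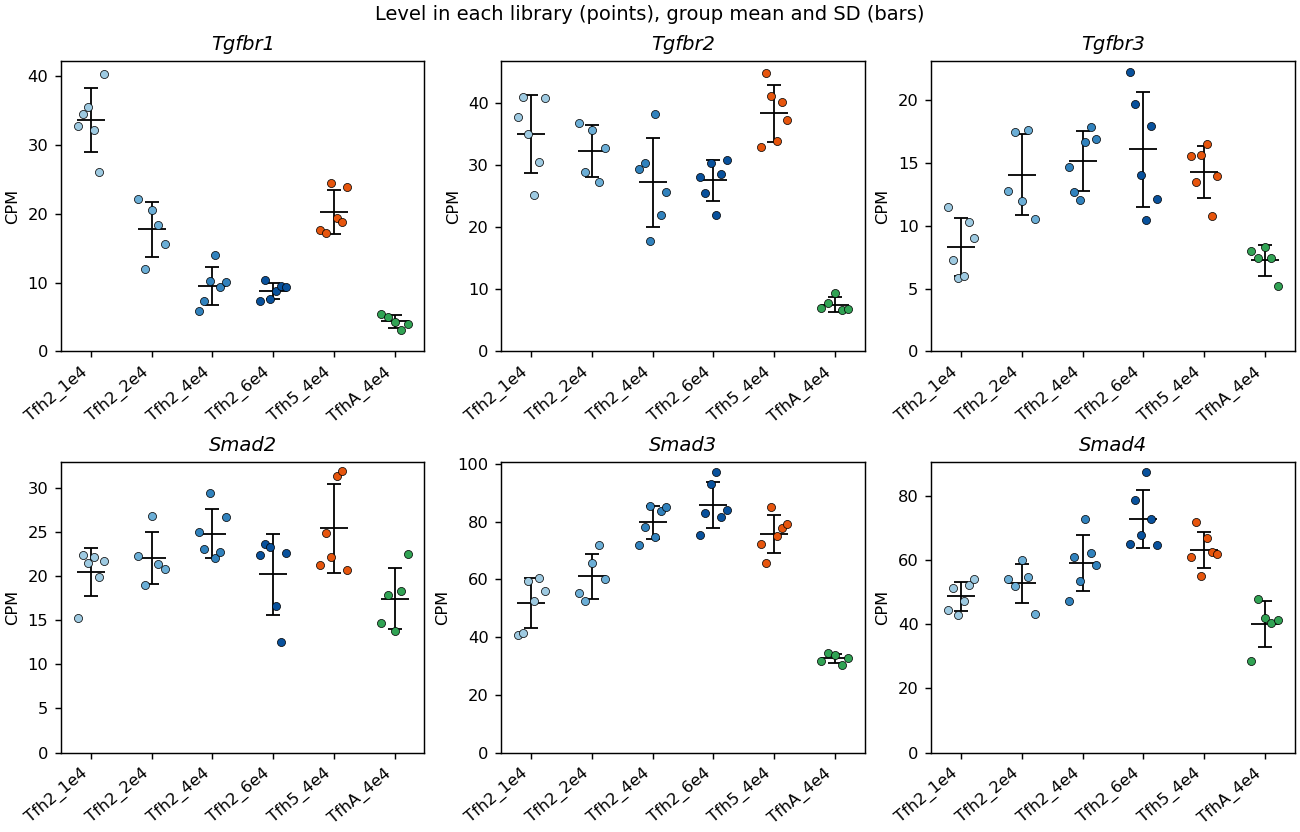
Level of each of the 6 genes in each of the 34 libraries (points, CPM on the vertical axis), by group on the horizontal axis, with the group mean and SD as bars. The TfhA_4e4 libraries lie lowest in mean in all 6 panels (the share of all genes lowest there was not counted). Tgfbr1 steps down from 33.6 CPM at Tfh2_1e4 to 8.83 CPM at Tfh2_6e4.

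Tgfbr1, the type I receptor (gene identifier 21812, GRCm38.p6 chromosome 4, 47353222 to 47414926, plus strand), varied most of the 6, with a 7.71-fold span between its highest and lowest group mean. Tfh2_1e4 held 33.6 ± 4.66 CPM (SD, n = 6), with 26.1 CPM in its lowest library, a median of 33.6 and 40.3 in its highest. The 5 libraries of Tfh2_2e4 held 22.1, 12.0, 20.5, 18.3 and 15.6 CPM. Every Tfh2_1e4 library was above every library of the other 5 groups.
In Tfh2_4e4 Tgfbr1 was 5.88 CPM at its lowest, 9.71 at the median and 14.0 at its highest, and in Tfh2_6e4 7.30, 9.10 and 10.3 CPM. Tfh5_4e4 held 17.2, 19.1 and 24.5 CPM on the same 3 measures, and the TfhA_4e4 libraries 5.37, 4.97, 4.31, 3.11 and 3.99 CPM. The order of means was Tfh2_1e4, Tfh5_4e4, Tfh2_2e4, Tfh2_4e4, Tfh2_6e4, TfhA_4e4. Tfh5_4e4 and Tfh2_2e4 differed by less than their spread, as did Tfh2_4e4 and Tfh2_6e4. Tfh5_4e4 did not overlap Tfh2_4e4, and TfhA_4e4 overlapped no other group.
The level of Tgfbr1 fell by 0.78 on the log2 scale per doubling of the label number (SE 0.061, edgeR adjusted p = 1.07e-14), which placed its slope 206th from the lowest of 11357 genes. From Tfh2_1e4 to Tfh2_6e4 the log2 fold change was -1.93 (SE 0.172, edgeR adjusted p = 8.62e-13). It fell by 0.92 from 1e4 to 2e4 (edgeR adjusted p = 2.65e-04) and by 0.89 from 2e4 to 4e4 (edgeR adjusted p = 3.37e-04). From 4e4 to 6e4 its log2 fold change was -0.11, with a 95% interval of -0.47 to 0.25. The last step per doubling minus the first came to 0.74 (unadjusted p = 0.0403, edgeR adjusted p = 0.605), so a difference between the steps did not pass.
Between codes at 4e4, Tgfbr1 rose by 1.09 in Tfh5_4e4 (SE 0.172, edgeR adjusted p = 5.05e-05) and fell by 1.14 in TfhA_4e4 (SE 0.207, edgeR adjusted p = 1.79e-05), both against Tfh2_4e4. Its log2 fold change in TfhA_4e4 against Tfh5_4e4 was -2.23 (SE 0.204, edgeR adjusted p = 1.71e-12). Tgfbr1 rested on 17 to 27 counts in each TfhA_4e4 library and on 120 counts over that group, beside 1961 over Tfh2_1e4.

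Tgfbr2, the type II receptor (identifier 21813, chromosome 9, 116087695 to 116175363, minus strand), was lowest in TfhA_4e4. The TfhA_4e4 libraries held 6.96, 7.87, 9.44, 6.70 and 6.81 CPM. In Tfh2_4e4 the lowest library held 17.8 CPM, the median was 27.6 and the highest was 38.3, and in Tfh5_4e4 these were 32.9, 38.7 and 44.9 CPM. No TfhA_4e4 library reached any library of another group. Of the other groups, Tfh2_6e4 (21.9 to 30.8 CPM) lay wholly below Tfh5_4e4, and every other pair overlapped.
Tgfbr2 fell by 1.85 on the log2 scale in TfhA_4e4 against Tfh2_4e4 (SE 0.171, edgeR adjusted p = 3.63e-12), the 404th lowest value of 11357 genes. Its log2 fold change against Tfh5_4e4 was -2.34 (SE 0.172, edgeR adjusted p = 1.64e-15). This was the gene with the lowest log2 fold change of the 6 in both comparisons.
In Tfh5_4e4 Tgfbr2 rose by 0.50 over Tfh2_4e4 (SE 0.142, edgeR adjusted p = 0.0411, 95% interval 0.21 to 0.78). This call was near the threshold, and the ranges of the groups overlapped. It was lost without Tfh2_4e4 replicate 3 (0.40, edgeR adjusted p = 0.145), the library with the lowest Tgfbr2 of its group, and without each of Tfh2_4e4 replicates 1, 5 and 6 and Tfh5_4e4 replicates 2, 3, 5 and 6. Without both libraries that stood apart in S100a6 it was 0.40 (edgeR adjusted p = 0.136).
Within Tfh2, Tgfbr2 had a median of 36.3 CPM at 1e4 (25.2 to 41.0) and 28.3 CPM at 6e4 (21.9 to 30.8), with overlapping ranges. At 2e4 the libraries held 36.8, 29.0, 35.7, 27.2 and 32.7 CPM. Its slope was -0.15 per doubling (SE 0.051, edgeR adjusted p = 0.0126), a fall that did not pass with the share of mitochondrial rRNA as a covariate (-0.12, edgeR adjusted p = 0.0753). The fold change from 1e4 to 6e4 was -0.35 (edgeR adjusted p = 0.0434) and no longer passed without any 1 of Tfh2_1e4 replicates 1, 2 and 6 or Tfh2_6e4 replicates 2 and 4. In the order of means (Tfh5_4e4, Tfh2_1e4, Tfh2_2e4, Tfh2_6e4, Tfh2_4e4, TfhA_4e4), only Tfh2_2e4 and Tfh2_6e4, and then Tfh2_4e4 and TfhA_4e4, were neighbours that differed by more than the larger SD.

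Tgfbr3, the co-receptor betaglycan (identifier 21814, chromosome 5, 107106567 to 107289629, minus strand), had its lowest means in TfhA_4e4 and Tfh2_1e4. The TfhA_4e4 libraries held 7.95, 7.46, 8.28, 7.42 and 5.17 CPM. Tfh2_1e4 ran from 5.81 to 11.5 CPM with a median of 8.15, and Tfh2_2e4 held 12.8, 17.4, 12.0, 17.6 and 10.6 CPM. The TfhA_4e4 and Tfh2_1e4 ranges overlapped, on 22 to 62 counts per TfhA_4e4 library and 55 to 104 counts per Tfh2_1e4 library.
Tfh2_4e4 ran from 12.1 to 17.9 CPM (median 15.7), Tfh2_6e4 from 10.5 to 22.2 (15.97) and Tfh5_4e4 from 10.8 to 16.5 (14.8). The means of Tfh2_2e4, Tfh2_4e4, Tfh2_6e4 and Tfh5_4e4 lay between 14.1 and 16.1 CPM, and none of these neighbours differed beyond its spread. TfhA_4e4 overlapped Tfh2_1e4 and no other group.
In contrast to the 2 signalling receptors, Tgfbr3 rose with the label number, by 0.35 per doubling (SE 0.069, edgeR adjusted p = 4.31e-05) and by 0.95 from 1e4 to 6e4 (SE 0.191, edgeR adjusted p = 5.91e-05). Most of this lay in the first step, where it rose by 0.75 (edgeR adjusted p = 0.0142). That step's call was lost without any 1 of Tfh2_1e4 replicates 3 and 4 or Tfh2_2e4 replicates 2 and 5, with values from 0.66 to 0.67. Between codes it fell by 1.05 in TfhA_4e4 against Tfh2_4e4 (SE 0.211, edgeR adjusted p = 9.26e-05) and was lower than in Tfh5_4e4 (-0.97, edgeR adjusted p = 2.08e-04). Tfh5_4e4 against Tfh2_4e4 gave -0.08, with a 95% interval of -0.46 to 0.30.

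The 2 signalling receptors were close to equal at one end of the Tfh2 series and unequal at the other. With 3-prime counts, which do not scale with transcript length, the ratio of Tgfbr1 to Tgfbr2 counts (0.5 added to each) had a median of 0.928 in Tfh2_1e4, with libraries from 0.842 to 1.28. It was 0.576 in Tfh2_2e4 (0.417 to 0.675), 0.380 in Tfh2_4e4 (0.202 to 0.574) and 0.321 in Tfh2_6e4 (0.252 to 0.406). No library of another group reached the lowest Tfh2_1e4 ratio.
In TfhA_4e4, where both genes were at their lowest level, the ratio was 0.593 (0.461 to 0.775), and in Tfh5_4e4 it was 0.555 (0.384 to 0.641). Both ranges overlapped that of Tfh2_4e4. Ratios between genes also depend on how well each 3-prime end is captured and are descriptions without a test.

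**Figure D2:**
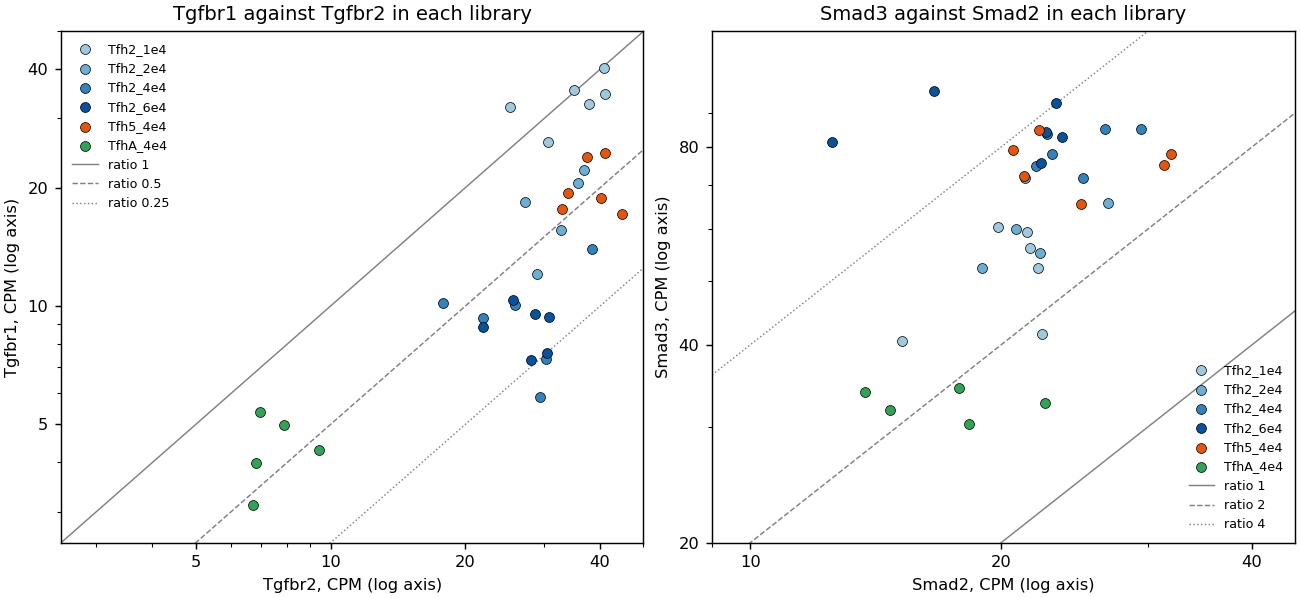
Tgfbr1 against Tgfbr2 (left) and Smad3 against Smad2 (right) in each of the 34 libraries, in CPM on log axes, with lines of equal ratio and groups by colour. The Tfh2_1e4 libraries lie near a Tgfbr1 to Tgfbr2 ratio of 1 (median 0.928) and the Tfh2_6e4 libraries at a median of 0.321. The TfhA_4e4 group has the lowest median Smad3 to Smad2 ratio (1.93).

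Smad2, a receptor-regulated SMAD (identifier 17126, chromosome 18, 76241090 to 76311748, plus strand), was the steadiest of the 6, with a 1.46-fold span of group means. Its libraries ran from 15.2 to 22.4 CPM in Tfh2_1e4 (median 21.6), from 22.04 to 29.4 in Tfh2_4e4 (24.1), from 12.6 to 23.7 in Tfh2_6e4 (22.5) and from 20.7 to 31.9 in Tfh5_4e4 (23.6). The Tfh2_2e4 libraries held 22.3, 19.0, 26.9, 21.4 and 20.9 CPM and the TfhA_4e4 libraries 14.7, 17.8, 13.8, 18.3 and 22.6 CPM. Every pair of groups overlapped, and no neighbours in the order of means differed beyond their spread.
Smad2 fell by 0.52 in TfhA_4e4 against Tfh2_4e4 (SE 0.162, edgeR adjusted p = 0.0115) and was lower than in Tfh5_4e4 (log2 fold change -0.55, edgeR adjusted p = 0.00572). With the mitochondrial rRNA share as a covariate these were -0.60 (edgeR adjusted p = 0.0724) and -0.64 (edgeR adjusted p = 0.0507) and did not pass. That share was 14.8% ± 2.19 (SD, n = 5) in TfhA_4e4 and 9.92% ± 0.989 (n = 6) in Tfh2_4e4, of counts outside the 2 unnamed identifiers. The TfhA_4e4 range of the share overlapped neither Tfh2_4e4 nor Tfh5_4e4, so the covariate fit cannot separate the share from the code. The slope was 0.03 per doubling with a 95% interval of -0.08 to 0.14, and Tfh5_4e4 against Tfh2_4e4 gave 0.03 with an interval of -0.27 to 0.33.

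Smad3, the other receptor-regulated SMAD (identifier 17127, chromosome 9, 63646766 to 63757994, minus strand), had the highest mean of the 6 genes in every group except TfhA_4e4. The TfhA_4e4 libraries lay close together at 31.8, 34.4, 33.96, 30.3 and 32.7 CPM. Tfh2_4e4 ran from 71.9 to 85.3 CPM with a median of 80.8, and Tfh5_4e4 from 65.5 to 84.9 with a median of 76.5. TfhA_4e4 overlapped none of the other groups, and its highest library lay below the lowest of Tfh2_1e4, at 40.6 CPM.
Smad3 fell by 1.29 in TfhA_4e4 against Tfh2_4e4 (SE 0.113, edgeR adjusted p = 6.22e-13), and its log2 fold change against Tfh5_4e4 was -1.22 (SE 0.113, edgeR adjusted p = 2.62e-12). Tfh5_4e4 against Tfh2_4e4 gave -0.08, with a 95% interval of -0.28 to 0.13.
Within Tfh2 the Smad3 median was 54.3 CPM at 1e4 (40.6 to 60.4) and 83.6 CPM at 6e4 (75.5 to 97.3), and these ranges did not overlap. The Tfh2_2e4 libraries held 55.3, 52.4, 65.8, 71.9 and 60.04 CPM. Smad3 rose by 0.30 per doubling (SE 0.037, edgeR adjusted p = 6.07e-09) and by 0.73 from 1e4 to 6e4 (edgeR adjusted p = 9.83e-08). Of the single steps only 2e4 to 4e4 passed (0.39, edgeR adjusted p = 0.0103). That call was lost without Tfh2_2e4 replicate 1 (0.34, edgeR adjusted p = 0.0521) and without both libraries that stood apart in S100a6 (0.34, edgeR adjusted p = 0.0654).
The ratio of Smad3 to Smad2 counts had a median of 1.93 in TfhA_4e4 (1.45 to 2.46) and 3.29 in Tfh2_4e4 (2.86 to 3.67), without overlap. It was 2.62 in Tfh2_1e4 (1.86 to 3.04), 2.76 in Tfh2_2e4 (2.45 to 3.35), 3.85 in Tfh2_6e4 (3.37 to 6.46) and 3.01 in Tfh5_4e4 (2.39 to 3.82). The TfhA_4e4 range overlapped those of Tfh2_1e4, Tfh2_2e4 and Tfh5_4e4. Smad3 was the more abundant of this pair in all 34 libraries, and the excess was smallest in the median in TfhA_4e4.

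Smad4, the common partner (identifier 17128, chromosome 18, 73634790 to 73703791, minus strand), was lowest in TfhA_4e4, at 28.4, 48.0, 42.1, 40.6 and 41.4 CPM. Tfh2_1e4 ran from 42.9 to 54.3 CPM (median 49.4), Tfh2_4e4 from 47.2 to 73.0 (59.8), Tfh2_6e4 from 65.0 to 87.7 (70.4) and Tfh5_4e4 from 55.2 to 71.9 (62.3). The Tfh2_2e4 libraries held 54.3, 52.0, 60.04, 54.8 and 43.4 CPM. TfhA_4e4 overlapped the groups from Tfh2_1e4 to Tfh2_4e4 and lay below all Tfh2_6e4 and Tfh5_4e4 libraries.
Smad4 fell by 0.56 in TfhA_4e4 against Tfh2_4e4 (SE 0.121, edgeR adjusted p = 2.26e-04), with a log2 fold change of -0.66 against Tfh5_4e4 (edgeR adjusted p = 1.81e-05). In Tfh5_4e4 against Tfh2_4e4 it was 0.09, with a 95% interval of -0.13 to 0.32. It rose by 0.21 per doubling (SE 0.041, edgeR adjusted p = 3.24e-05) and by 0.58 from 1e4 to 6e4 (edgeR adjusted p = 3.70e-05). No single step of Smad4 passed, and the last, from 4e4 to 6e4, had the largest value (0.30, unadjusted p = 0.011, edgeR adjusted p = 0.204). In TfhA_4e4 Smad4 had a mean of 40.1 CPM and was the highest of the 6 genes, ahead of Smad3 at 32.6 CPM.

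**Figure D3:**
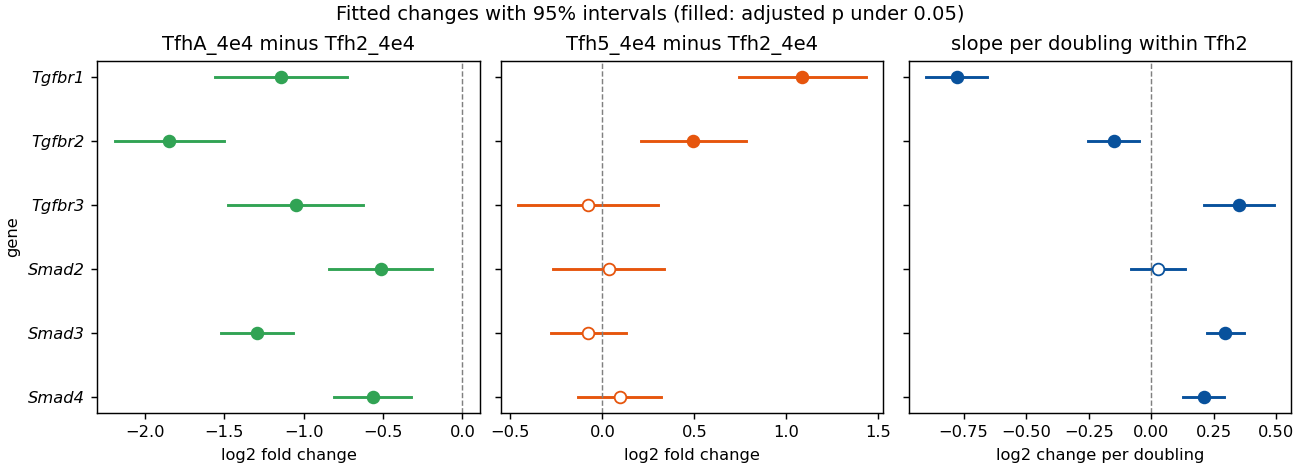
Fitted log2 fold changes of the 6 genes with 95% intervals in TfhA_4e4 minus Tfh2_4e4 (left) and Tfh5_4e4 minus Tfh2_4e4 (middle), and the log2 change per doubling of the label number within Tfh2 (right). Filled points have an edgeR adjusted p under 0.05: all 6 on the left, from -1.85 for Tgfbr2 to -0.52 for Smad2, only Tgfbr1 and Tgfbr2 in the middle, and all but Smad2 on the right.

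The steps between neighbouring label numbers differed in what they called, and they are not of equal size. The last, from 4e4 to 6e4, is 0.585 of a doubling, while the earlier ones are full doublings. From 1e4 to 2e4 Tgfbr1 fell and Tgfbr3 rose, beside 5.26% of all genes called (4.06% higher and 1.20% lower). From 2e4 to 4e4 Tgfbr1 fell and Smad3 rose, beside 13.0% (7.59% higher and 5.40% lower). From 4e4 to 6e4 none of the 6 passed, beside 1.48% (0.616% higher and 0.863% lower). In that last step edgeR had 1 gene, Smad4, at an unadjusted p under 0.05, and DESeq2 and limma-voom also called 0 of the 6. From 1e4 to 6e4 edgeR called 5 of the 6, 3 higher and 2 lower, beside 43.0% of all genes (22.3% higher and 20.7% lower). The last step minus the first was called for 0 of the 6 by edgeR, DESeq2 and limma-voom, with Tgfbr1 and Smad2 at an unadjusted p under 0.05 in edgeR (Smad2 -0.61, edgeR adjusted p = 0.649), beside 0.343% of all genes called by edgeR, each of them lower. Scaling by library totals alone moved the median of all genes to -0.11 for the slope, -0.26 for 6e4 against 1e4 and -0.20 for 4e4 against 2e4. The share of calls that were higher then changed from 51.3% to 28.8%, from 51.9% to 30.4% and from 58.4% to 23.0%. Under that scaling the slope of Smad4 was 0.10 (edgeR adjusted p = 0.059) and the 2e4 to 4e4 step of Smad3 0.20 (edgeR adjusted p = 0.262), so both lost their calls while the signs were kept. For Tfh5_4e4 against Tfh2_4e4 the share of higher calls changed from 45.3% to 57.5%, and Tgfbr2 was at 0.54 (edgeR adjusted p = 0.0723).

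Some T cell identity genes changed in the same comparisons as the 6 genes. In TfhA_4e4 against Tfh2_4e4, 3 of the 7 fell (Cd3d by 0.35, Cd3e by 0.52 and Cd28 by 0.58) and 4 did not pass (Cd3g -0.32, Lck -0.14, Cd4 -0.12 and Cd5 0.15). Over all genes 17.4% were called lower and 15.5% higher in that comparison. The 7 together summed to 1490 to 1607 CPM in TfhA_4e4 and 1803 to 2032 CPM in Tfh2_4e4. Along the label number within Tfh2, 5 of the 7 rose, beside 24.1% of all genes called higher and 22.8% lower. Their slopes per doubling were 0.27 for Cd3d and Cd28, 0.21 for Cd4, 0.17 for Cd3g and 0.16 for Cd3e. These are of the size of the slopes of Smad4 (0.21) and Smad3 (0.30). Lck fell by 0.28 and Cd5 did not pass (-0.05). The sum was 1444 to 1691 CPM at 1e4 and 1775 to 2092 CPM at 6e4. Of the other marker genes only Cd8b1 and Klre1 passed the low-count filter. Neither passed the test in TfhA_4e4 against Tfh2_4e4, and Klre1 rose with the label number (0.53, edgeR adjusted p = 0.0344). In TfhA_4e4 and Tfh2_4e4 the 2 CD8 genes summed to 6.11 to 15.5 and 5.80 to 11.4 CPM, the 4 B cell genes to at most 0.940 and 1.52 CPM (Cd79a at 0 in both), the 4 myeloid genes to at most 1.16 and 1.19 CPM (Lyz2 at 0 in both) and the 3 NK cell genes to at most 3.59 and 3.04 CPM (Ncr1 at 0 in both). The part of these differences, and of the mitochondrial rRNA share, in the levels of the 6 genes was not tested. With that share as a covariate 5 of the 6 still passed in TfhA_4e4 against Tfh2_4e4. That fit called 1126 genes higher and 1594 lower of 11357. The share ran from 12.6% to 17.3% in TfhA_4e4 and from 8.06% to 11.1% in Tfh2_4e4. These ranges do not overlap, so the fit cannot separate the share from the code.

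The rest of the pathway was described with 56 further genes in 5 lists, of which 47 passed the low-count filter. Acvr1b, Acvr1c, Bmpr1b, Amhr2, Smad6, Smad9, Zfyve9, Bambi and Foxh1 did not. In TfhA_4e4 against Tfh2_4e4, 21 of the 47 fell and 2 rose, beside 17.4% lower and 15.5% higher over all genes, and the median log2 fold change was -0.32 against -0.01 for all genes. Smad7, Skil, Pmepa1 and Ldlrad4 of these lists were known from earlier results on the same libraries, so the count is not independent evidence of a direction.
Of 7 other receptors of the family 3 fell and 1 rose. Acvrl1, a type I receptor for bone morphogenetic protein ligands, fell by 2.702 on the log2 scale (65.7 ± 13.0 CPM, n = 6, in Tfh2_4e4 and 10.3 ± 4.15 CPM, n = 5, in TfhA_4e4). The type II receptor genes Bmpr2 and Acvr2a fell by 2.23 and 1.40. The receptor gene that rose, Acvr2b, is outside the naming rule because of its low level and was named after its value was seen (1.76).
Of 3 other SMADs 2 fell: Smad5, which serves bone morphogenetic protein receptors, by 1.73, and Smad7, the inhibitor that blocks type I receptors, by 1.51. Of 15 cytoplasmic regulators 7 fell and 0 rose. The SMAD-sequestering gene Ldlrad4 fell by 4.95, the adaptor gene Dab2 by 3.09, Pmepa1, whose product also holds back SMADs, by 1.31, and the deubiquitinase gene Usp11 by 0.90. Ldlrad4 held 50.6 ± 6.16 CPM (n = 6) in Tfh2_4e4 and 1.64 ± 1.35 CPM (n = 5) in TfhA_4e4.
Of 15 nuclear partners 8 fell and 1 rose. The corepressor genes Skil and Tgif1 fell by 2.67 and 1.33 and Runx1, a transcription factor that works with SMADs, by 1.46, while Zeb2, which encodes a SMAD-interacting repressor, rose by 1.70. Of 7 genes of the branch that runs outside the SMADs 1 fell, the ubiquitin ligase gene Traf6 (-0.60, edgeR adjusted p = 0.0495), and their median was -0.00 with all genes at -0.01.

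In Tfh5_4e4 against Tfh2_4e4, 8 of the 47 rose and 1 fell, beside 1.41% higher and 1.70% lower over all genes. Smad7, Skil, Pmepa1 and Ldlrad4, known from earlier results on these libraries, are among those that rose. This count is therefore not independent evidence of a direction. Smad7 rose by 0.88, Pmepa1 by 0.83, Map3k7 (the kinase TAK1) by 0.66, Skil by 0.52 and Ldlrad4 by 0.52. Runx1 and the phosphatase gene Ppm1a rose by 0.40 and 0.41, and Runx3 fell by 0.37. The 9 calls became 5 without Tfh5_4e4 replicate 6. Ski rose as well (0.34), named after its value was seen. The products of Smad7, Pmepa1, Ldlrad4, Skil, Ski and Ppm1a are known for holding the pathway back. Map3k7 and Runx1, which also rose, are not among these. Other regulators of the same lists did not pass, such as Tgif1 (0.55, edgeR adjusted p = 0.103), Smurf2 (0.13) and Tgif2 (0.07). Neither did Strap (0.03) and Smurf1 (-0.03), and Smad6 and Bambi were not tested. The genes named as holding the pathway back are therefore a selection from the lists. Whether signalling through the pathway differed between the groups was not tested.

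**Figure D4:**
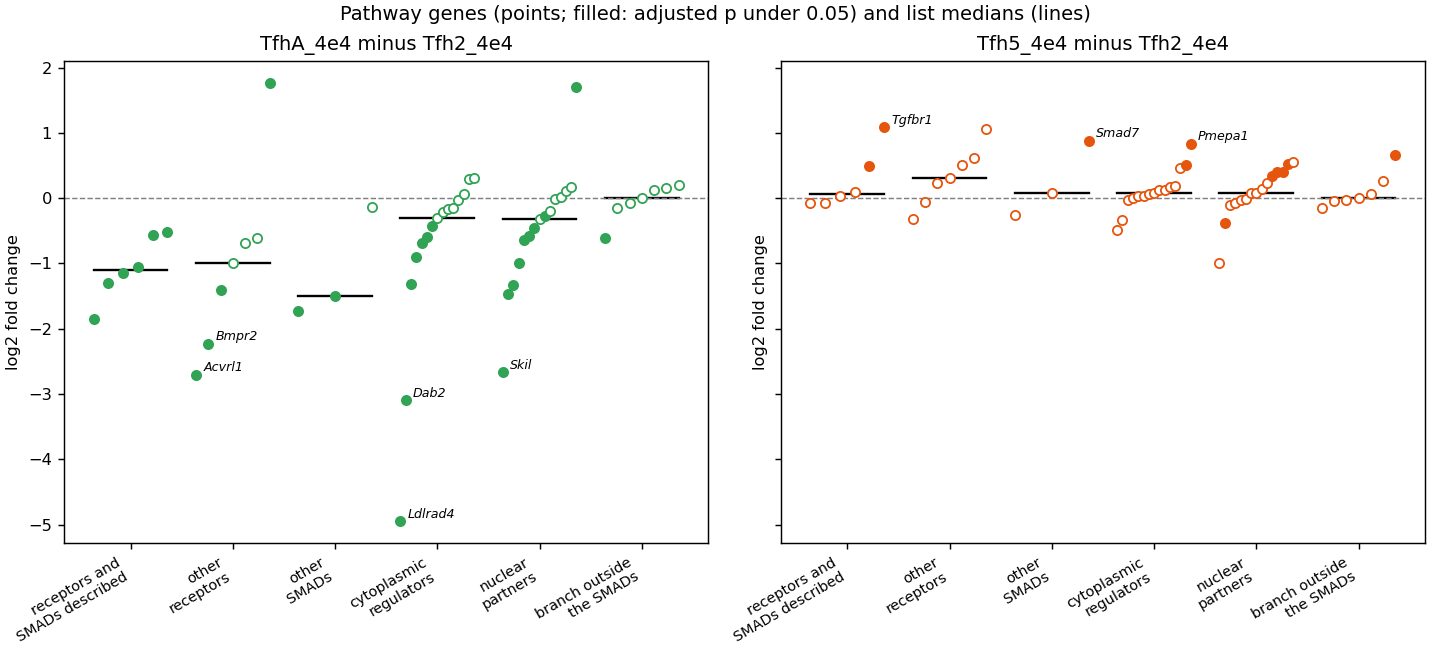
Log2 fold changes of the 6 genes and of the 47 tested genes of 5 pathway lists in TfhA_4e4 minus Tfh2_4e4 (left) and Tfh5_4e4 minus Tfh2_4e4 (right), filled where the edgeR adjusted p is under 0.05, with list medians as lines. On the left the points reach from -4.95 for Ldlrad4 to 1.76, and on the right the largest called value is 1.09, for Tgfbr1.

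TfhA_4e4 against Tfh5_4e4 called 23 of the 47 lower and 1 higher, beside 20.4% lower and 19.1% higher over all genes, with Ldlrad4 at -5.46, Skil at -3.18, Bmpr2 at -2.54, Smad7 at -2.39 and Acvrl1 at -2.38. Pmepa1 was at -2.14, and Zeb2 was the gene that was higher (2.69). The genes lower here include Smad7, Skil, Pmepa1 and Ldlrad4, known from earlier results, so this count is not independent evidence either. Of the branch outside the SMADs, Traf6 was at -0.86 and Map3k7 at -0.46.

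Within Tfh2, 11 of the 47 rose and 14 fell with the label number, near the 24.1% and 22.8% of all genes. Acvrl1 rose by 1.36 per doubling (edgeR adjusted p = 7.50e-21), with means of 8.62 CPM at 1e4, 25.0 at 2e4, 65.7 at 4e4 and 95.6 at 6e4. Of the other receptors Bmpr1a rose by 0.30, and Acvr1 and Acvr2a fell by 0.68 and 0.26. Smad5 rose by 0.49 and the inhibitor gene Smad7 fell by 0.25. The remaining tested SMAD of this list, Smad1, did not pass (0.03, edgeR adjusted p = 0.699).
Among the regulators Pmepa1 fell by 0.66 per doubling (edgeR adjusted p = 3.13e-22), from 648 ± 28.8 CPM (n = 6) at 1e4 through 410 ± 50.4 (n = 5) and 272 ± 24.1 (n = 6) to 193 ± 21.2 (n = 6) at 6e4. Dab2 and Tgfbrap1, which binds the receptors, fell by 0.53 and 0.36, and Usp11 rose by 0.37. Runx3 rose by 0.63 and Zeb1 by 0.30, while Tgif1 and Ski fell by 0.31 and 0.24. All 3 called genes outside the SMAD branch fell: Map3k7 by 0.54, Traf4 by 0.26 and Shc1 by 0.19. In the step from 4e4 to 6e4 Pmepa1 was the only 1 of the 47 that passed (-0.49), beside 0.863% lower and 0.616% higher over all genes. The count was 1 to 3 under other settings.

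Over the 34 libraries, which share their groups and so are not independent points, the genes whose log2 CPM was most like that of each member were listed among the 6681 genes whose mean log2 CPM was 3 or more. For Tgfbr1 they were Pmepa1, Foxp1 and Tnk2 (Pearson r of 0.931, 0.931 and 0.925), and for Tgfbr2 Ptgfrn, Plekhf2 and Cerk (0.958, 0.957 and 0.956). For Smad3 they were Jmy, Igf1r and Ets1 (0.960, 0.959 and 0.956) and for Smad4 Rnf145, Tspan5 and Ccr7 (0.893, 0.871 and 0.870). The best matches were weaker for Tgfbr3 (Mxi1, Map3k1 and Wipi1, at 0.832, 0.825 and 0.825) and for Smad2 (Xpo6, Atp2c1 and Tsc22d4, at 0.613, 0.606 and 0.601).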

How the data were processed

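RNA of sorted CD4 T cells was counted in 34 libraries of 6 groups, made with a 3-prime kit (Lexogen, 50 ng input, per the labels' protocols). The authors deposited raw counts per gene identifier for each library. STAR 2.7.2b, featureCounts 1.6.4 and mm10 are named per the submitters' processing notes. Strand and multimapping settings are not given in the sources used here, so reads of overlapping, antisense or near-identical genes cannot be told apart. Of 27179 identifiers 25275 matched a symbol by identifier (GRCm38.p6). The 1904 others held 48.8% of counts and stayed in the library totals. Genes annotated as overlapping Tgfbr1, Tgfbr2, Tgfbr3 and Smad3 are not among the counted identifiers.

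Counts were fitted in edgeR 4.0.16 (R 4.3.3) with TMM, filterByExpr by group (11357 genes) and 1 mean per group over all 34 libraries, with two-sided quasi-likelihood tests adjusted by Benjamini and Hochberg, threshold 0.05. Intervals are at 95%. The design was tested on simulated data. Alternatives were DESeq2 1.42.0, limma-voom (limma 3.58.1), other scalings, no filter, a replicate block, ranges of replicate numbers, a mitochondrial rRNA covariate, only the groups compared, and libraries left out. The contrast of the last with the first step was added after the data were seen. No 2 libraries of a group agreed within sampling noise (lowest chi-square per degree of freedom 5.25 over 80 pairs).

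The 6 genes and all lists were chosen with earlier results of these data known. Named genes are the 6 members, up to 4 genes per pathway list and comparison past the threshold (mean log2 CPM 1 or more), by size of change, and the 3 genes (mean log2 CPM 3 or more) most correlated with each member. Promoter windows came from RefSeq for 3 of the 6 genes. Other windows and protein sequences were not used here.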

Additional observations from a re-analysis of the deposited data

Results flagged for a closer look

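In 48 sets of values (the level of each of the 6 genes and the 2 ratios, in each group) the highest and lowest library were compared with the next. In 2 of them 1 library lay far from the rest of its group. Tgfbr3 in TfhA_4e4 replicate 6 was at 5.17 CPM, with the other 4 libraries between 7.42 and 8.28 CPM, so that the gap was 0.724 of the range (limit 0.71). Smad2 in Tfh2_1e4 replicate 1 was at 15.2 CPM, with the other 5 between 19.8 and 22.4 CPM, a gap of 0.647 of the range (limit 0.625). Chance alone marks about 1 in 20 such groups.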

How the results depend on the processing

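Of 1392 log2 fold changes of the 6 genes under alternatives, 1339 kept their direction and side of the threshold, 29 lost their call and 24 changed sign, all of the last among values that had not passed. The 48 group levels and ratios moved by less than 1 SD under another scaling or pseudocount. In TfhA_4e4 against Tfh2_4e4 and against Tfh5_4e4 no library's removal ended a member call. With library totals only, Smad2 was at -0.0818 for the slope, and from 2e4 to 4e4 Tgfbr3 was at -0.0676, Smad2 at -0.0282 and Smad4 at -0.0149, with Tgfbr2 at -0.0095 from 4e4 to 6e4. Without Tfh2_4e4 replicate 3 and Tfh2_2e4 replicate 6 together, Tgfbr2 was at -0.0707 in that last step. Leaving out 1 library at a time gave ranges across 0 for Smad2 in the slope (-0.0078 to 0.0553), in 6e4 against 1e4 (-0.108 to 0.0782) and in Tfh5_4e4 against Tfh2_4e4 (-0.0404 to 0.0896), for Tgfbr3 from 2e4 to 4e4 (-0.0034 to 0.204), for Tgfbr1 (-0.203 to 0.0433), Tgfbr2 (-0.0768 to 0.149) and Tgfbr3 (-0.0285 to 0.197) from 4e4 to 6e4, and for Tgfbr2 (-0.0077 to 0.382) and Smad3 (-0.110 to 0.0103) in the last step minus the first.

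Members called in Tfh5_4e4 against Tfh2_4e4 were 1 instead of 2 with library totals only, with only the groups compared and without both libraries, and 1 to 2 with 1 library left out. From 2e4 to 4e4 they were 1 instead of 2 with library totals only, without both libraries, and 1 to 2 with 1 left out, and from 1e4 to 2e4 1 to 2 with 1 left out. Pathway genes called from 4e4 to 6e4 were 1, against 2 with DESeq2 size factors, no filter or only the groups compared, and 3 with the replicate block, the ranges of replicate numbers, the mitochondrial covariate, DESeq2 or limma-voom, and 1 to 2 with 1 library left out. They were 11 instead of 7 from 2e4 to 4e4 with library totals only. Over all genes that setting changed 862 higher and 613 lower calls to 451 and 1507. From 1e4 to 2e4 they were 5 instead of 8 without both libraries (4 to 8 with 1 left out, lowest without Tfh2_2e4 replicate 5). Over all genes that step had 597 calls, with 467 to 724 under other settings and 428 to 598 with 1 left out. In Tfh5_4e4 against Tfh2_4e4 the pathway genes called were 5 to 8 instead of 9 with 1 left out, beside 239 to 403 instead of 353 over all genes. The fall of Tgfbr2 from 1e4 to 6e4 also lost its call with no filter (edgeR adjusted p = 0.0592) and with the mitochondrial covariate (edgeR adjusted p = 0.169). The cause was not tested.

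Over all genes, calls in Tfh5_4e4 against Tfh2_4e4 were 353, and 584 with the replicate block. From 4e4 to 6e4 they were 168, with 74 to 381 under other settings and 55 to 269 with 1 library left out. For the last step minus the first they were 39, with 8 to 93 and 18 to 43. The replicate block changed no call of the 6 genes. Across groups, 15 of 80 same-numbered pairs had a correlation above 0.1 once group means were removed (mean r 0.0494, and -0.0098 for other numbers). Pairs of other numbers were not counted at that limit, so the 15 of 80 cannot decide whether numbers are paired. The labels state no pairing, and the numbers were not used as a pairing in the main fit. In 15 of 34 libraries the replicate number with the highest mean correlation was their own, where 5.67 would be so if all numbers were alike. This is a hint of structure shared by number, which the labels neither state nor exclude. Depth limits Tgfbr1 in TfhA_4e4 most, at 17 counts in its lowest library. Counting error without molecular identifiers was not separated from the spread between libraries.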
